A study of Mus musculus with 88 samples.

Results

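Mtf2 null and wild-type (WT) embryonic stem cells were compared after 48 h of directed differentiation toward mesoderm. The comparison used the 4 libraries of bulk RNA that carry those labels, 2 Mtf2 null and 2 WT, out of 88 samples in the series. All 4 derive from cultures labelled with the mouse line E14, grown as a monolayer from serum with LIF, a cytokine that keeps embryonic stem cells undifferentiated. By the study's methods, the cells first received Activin A, BMP4, CHIR99021 (an activator of Wnt signalling) and FGF2, which is meant to yield the mid primitive streak. They then received A-83-01, an inhibitor of Nodal and TGF-beta receptors, together with BMP4, which is meant to yield lateral mesoderm. The methods allot 48 h to that step alone, and whether the labelled 48 h counts from the start of differentiation was not settled here. The Mtf2 null cells are 1 line with a homozygous gene trap, so genotype and line cannot be told apart. The study's methods name another WT line as the matched control of the Mtf2 null line. The sample titles begin with E14 for WT and Mtf2 null libraries alike. In the endoderm series of the study, however, the library names give E14 for WT and not for Mtf2 null libraries. Whether the WT libraries compared here are of a matched line was not settled. The duplicates are technical ones by the study's methods, and every p-value below therefore measures only the spread between libraries of 1 preparation. Undifferentiated libraries and libraries of 5 and 24 h of the same genotypes, libraries labelled Jarid2 null at 48 h, and Mtf2 null and WT libraries of a parallel endoderm series at 48 h were used to show where the 48 h comparison differs. The endoderm series received Activin A, CHIR99021 and FGF2 without BMP4, and then Activin A with DM3189, an inhibitor of BMP receptors.

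MTF2, also called PCL2, is an accessory subunit of Polycomb repressive complex 2 (PRC2), which trimethylates lysine 27 of histone H3 at silent developmental genes. It belongs to the variant PRC2.1 and binds DNA through a winged helix that prefers unmethylated CG dinucleotides, and CG-rich promoters are the usual sites of PRC2. JARID2 and AEBP2 belong to the other variant, PRC2.2. Lateral mesoderm gives rise to the heart, the vessels and blood, whereas the extraembryonic endoderm, which lines the yolk sac, takes up nutrients through the receptor pair cubilin and amnionless and lays down a thick basement membrane of laminin and type IV collagen. GATA4, GATA6, SOX17 and PDGFRA are shared by these lineages.

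The sequences shown lie directly upstream of the RefSeq start of 5 genes that carry the results: the cubilin receptor and its partners (Cubn, Amn and Dab2), the receptor Pdgfra, and Zfp42, a naive pluripotency gene that was lower in Mtf2 null cells. They come from the RefSeq promoter table of build GRCm38.p6, are written 5′ to 3′ on the strand of the gene, and CG dinucleotides, the letters that the DNA-binding domain of MTF2 prefers, are in capitals.
Cubn (chr2:13491877-13492126, minus strand): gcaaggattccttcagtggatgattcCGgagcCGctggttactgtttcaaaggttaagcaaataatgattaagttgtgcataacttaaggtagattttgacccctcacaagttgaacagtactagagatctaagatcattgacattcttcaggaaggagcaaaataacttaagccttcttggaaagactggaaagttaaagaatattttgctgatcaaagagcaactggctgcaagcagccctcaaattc
Amn (chr12:111270846-111271094, plus strand): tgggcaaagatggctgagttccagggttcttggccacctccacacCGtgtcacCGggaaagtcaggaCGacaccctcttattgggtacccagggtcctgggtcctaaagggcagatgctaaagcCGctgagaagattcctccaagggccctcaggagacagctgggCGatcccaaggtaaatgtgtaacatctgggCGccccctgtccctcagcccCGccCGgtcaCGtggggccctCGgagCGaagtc
Dab2 (chr15:6299539-6299787, plus strand): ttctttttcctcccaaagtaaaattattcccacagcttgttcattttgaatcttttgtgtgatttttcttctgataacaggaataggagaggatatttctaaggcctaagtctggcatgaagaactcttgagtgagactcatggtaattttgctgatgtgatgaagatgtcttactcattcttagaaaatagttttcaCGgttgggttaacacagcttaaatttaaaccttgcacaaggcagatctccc
Pdgfra (chr5:75152001-75152250, plus strand): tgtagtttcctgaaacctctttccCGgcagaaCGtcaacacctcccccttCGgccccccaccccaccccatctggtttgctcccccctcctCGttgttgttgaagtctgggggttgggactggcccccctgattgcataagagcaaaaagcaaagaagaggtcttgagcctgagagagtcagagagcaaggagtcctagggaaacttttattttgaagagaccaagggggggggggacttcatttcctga
Zfp42 (chr8:43307010-43307259, minus strand): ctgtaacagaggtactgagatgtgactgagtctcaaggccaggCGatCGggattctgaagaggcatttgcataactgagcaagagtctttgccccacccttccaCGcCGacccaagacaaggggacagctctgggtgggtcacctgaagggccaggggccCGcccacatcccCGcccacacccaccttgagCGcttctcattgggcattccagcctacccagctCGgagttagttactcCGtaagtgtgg
In the 250 bases before the start Cubn and the upstream start of Dab2 hold 2 CG each, Pdgfra holds 4, Zfp42 9 and Amn 11. The stretches of Amn and Dab2 end a base early, before the first annotated exon base, and the stretch of Dab2 therefore shows 1 of its 2. Of 32851 windows of 250 bases in the table, 81.2% hold at least 2 CG, 62.2% at least 4, 40.3% at least 9 and 35.6% at least 11, and the median is 6. CG was counted once per window, since it reads the same on both strands. A second start of Dab2 holds 17 CG and the start of Olig2, another gene that was higher, holds 22, counts that 23.5% and 14.8% of windows reach. Both overlap annotated exons and are not shown. Genes that were higher in Mtf2 null cells thus include CG-poor and CG-rich starts, and the letters say nothing of binding in these cells.

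Mtf2 (ENSMUSG00000029267, chr5:108065674-108109004 of GRCm38) was at 292 and 206 CPM (counts scaled to the effective size of each library after TMM, a trimmed-mean scaling) in the WT libraries and at 30.2 and 33.7 CPM in the Mtf2 null libraries. Both Mtf2 null libraries lay below both WT libraries, by a log2 fold change of -2.96 (SE 0.17, adjusted p = 3.5e-11 by edgeR's quasi-likelihood F test with Benjamini-Hochberg adjustment, as throughout), which is a 7.79-fold lower level. Of the 13 PRC2 subunits on the list Mtf2 was the only one called in this comparison. Its paralogue Phf19 had a log2 fold change of 1.00 (SE 0.18, adjusted p = 0.00036), just under the limit, and Ezh2, Eed and Suz12, which encode the core, had 0.25, -0.20 and 0.05.

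The WT libraries held 13915846 and 11320673 counts and the Mtf2 null libraries 10959978 and 12440299, over 18361 genes that passed the filter on low counts. Log2 CPM values correlated at 0.979 between the WT duplicates, at 0.982 between the Mtf2 null duplicates, and at 0.922 to 0.931 across genotypes, over genes within these libraries. The counts of the WT duplicates differed by 17.1 times the sampling noise (chi-square over its degrees of freedom), the most of the 12 mesoderm groups, against 5.02 for the Mtf2 null duplicates. Among stress genes Ddit3 was at 5.62 and 43.1 CPM and Trib3 at 44.9 and 117 CPM in the WT libraries, with both Mtf2 null libraries in between. Some differences that were also present before differentiation are given here because the genotypes are also different lines. Hprt, the selectable salvage enzyme that widely used E14 sublines lack, was at 0.131 and 0.408 CPM in WT libraries and at 57.6 and 52.5 CPM in Mtf2 null libraries at 48 h, and between 75.5 and 93.9 CPM in the latter at the earlier times. Among protein-coding genes whose mean reached 10 CPM in either genotype, the median log2 fold change was -0.223 over 524 genes of chromosome 8 and -0.132 over 337 genes of chromosome 14, against -0.00829 to 0.184 for the other 18 chromosomes. In undifferentiated cells these medians were -0.232 and -0.104, against 0.0053 to 0.233. Their part in the results was not tested.

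A gene was called when its adjusted p was under 0.001 and its log2 fold change above 1 in size. By this rule 1252 of 18361 genes (6.82%) differed between Mtf2 null and WT cells at 48 h, 690 (3.76%) higher and 562 (3.06%) lower in Mtf2 null cells. With upper quartile scaling 613 were higher and 615 lower, without WT replicate 1 465 and 457, and without Mtf2 null replicate 2 586 and 340, so the excess of higher genes was absent under that scaling and small without that WT library. The 2 groups of libraries did not overlap in CPM for any of the 1252, and 1004 of them reached 5 CPM in the higher group. With 2 libraries a side such a lack of overlap was common, as it held for 11293 of the 18361 genes tested. The median log2 fold change over the genes tested was 0.00679. Among protein-coding genes the balance was further toward higher expression, with 626 of 14280 (4.38%) higher and 353 (2.47%) lower. Pseudogenes leaned the other way, with 13 of 1006 higher and 136 (13.5%) lower.

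**Figure D1:**
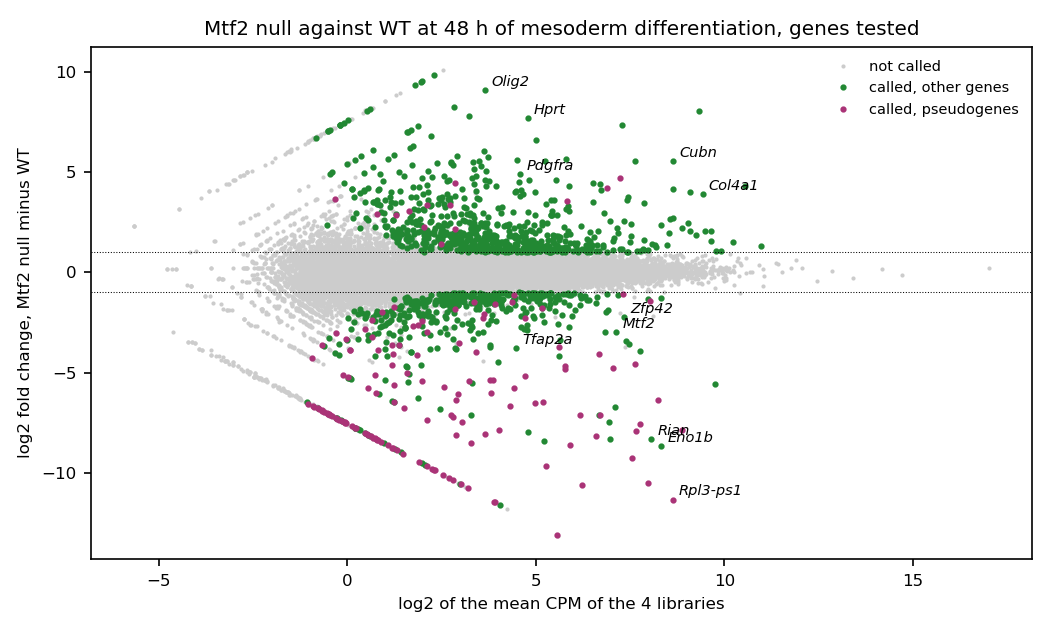
Each point is a gene of the 48 h comparison, with the log2 of its mean CPM over the 4 libraries on the x axis and its log2 fold change, Mtf2 null minus WT, on the y axis. Called pseudogenes (purple) lie mostly below 0, with Rpl3-ps1 at -11.33, while Cubn stands at 5.53 and Olig2 at 9.07, and 39 genes at 0 in all 4 libraries are not drawn.

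Genes of the extraembryonic endoderm made up the most uniform group. Of 11 members of the list 9 passed the filter on low counts, and these 9 were called higher in Mtf2 null cells, with a median log2 fold change of 4.33 against 0.00679 for the genes tested. The other two, Afp and Apoa1, were too low to test. Since the filter admits a gene that is high in Mtf2 null cells alone, the share of the 9 is a description of those that passed it. Most of these differences predate the mesoderm step. In undifferentiated cells 7 of the 9 were already called higher, with a median of 2.49, and 6 were at 5 h and 6 at 24 h. By the call rule the effect changed toward higher for 2 of the 9 since the undifferentiated state and for 3 since 24 h.

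The receptor for vitamin B12 and albumin in the visceral yolk sac was among these. Cubn, which encodes cubilin (ENSMUSG00000026726, chr2:13276338-13491813), was at 17.0 and 16.9 CPM in WT cells and at 713 and 858 CPM in Mtf2 null cells. Both Mtf2 null libraries thus stood far above both WT libraries, 46.3-fold higher by a log2 fold change of 5.53 (SE 0.19, adjusted p = 1.7e-14). Amn, whose product amnionless anchors cubilin in the membrane, was at 0.719 and 0.408 CPM in WT cells and at 22.5 and 23.3 CPM in Mtf2 null cells, a log2 fold change of 5.29 (SE 0.35, adjusted p = 4.9e-10). Dab2, the endocytic adaptor of the same receptors, rose from 9.02 and 7.01 CPM to 183 and 167 CPM, a log2 fold change of 4.44 (SE 0.15, adjusted p = 1.3e-14). Lrp2, the megalin receptor that works with cubilin and was chosen after its values were seen, was already at 258 and 369 CPM in WT cells and reached 1245 and 1350 CPM in Mtf2 null cells (log2 fold change 2.05, SE 0.15, adjusted p = 1.6e-09). The components of this uptake machinery rose together, each with no overlap between genotypes.

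Secreted proteins of the yolk sac were higher as well. Apob, which carries lipids, was at 1.24 and 1.71 CPM in WT and at 30.1 and 28.9 CPM in Mtf2 null libraries (log2 fold change 4.33, SE 0.28, adjusted p = 3.7e-10). Ttr, the carrier of thyroid hormone and retinol, had 2 counts in both WT libraries together and 217 counts in the Mtf2 null libraries, a ratio of 127 with a counting interval at 95% of 34.6 to 1050. These genes were near the detection limit in WT cells and clearly present in Mtf2 null cells.

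Several basement membrane genes rose from levels that were well above detection in WT cells. Lama1, the alpha chain of laminin-111, was at 59.4 and 70.3 CPM in WT cells and at 1019 and 1031 CPM in Mtf2 null cells, a log2 fold change of 3.98 (SE 0.15, adjusted p = 6.1e-14). Col4a1, an alpha chain of type IV collagen, went from 79.2 and 93.6 CPM to 1274 and 1299 CPM, a log2 fold change of 3.90 (SE 0.17, adjusted p = 5.8e-13). The spread within each genotype was small beside these differences. Lamb1 and Lamc1, the partner chains of laminin, had log2 fold changes of 2.69 and 1.84, Col4a2, which is transcribed from the opposite strand beside Col4a1, had 4.14, and Sparc, a secreted collagen-binding protein, had 2.05. In the extracellular matrix list these were the 6 genes called, all higher, of 16 tested among 22 members, with a median of 0.371. Lama1, Lamb1 and Sparc are also on the extraembryonic endoderm list, so the lists are not separate evidence. Nid1, which encodes the basement membrane linker nidogen-1, did not pass the test, with a log2 fold change of -0.22 (SE 0.15, adjusted p = 0.31).

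**Figure D2:**
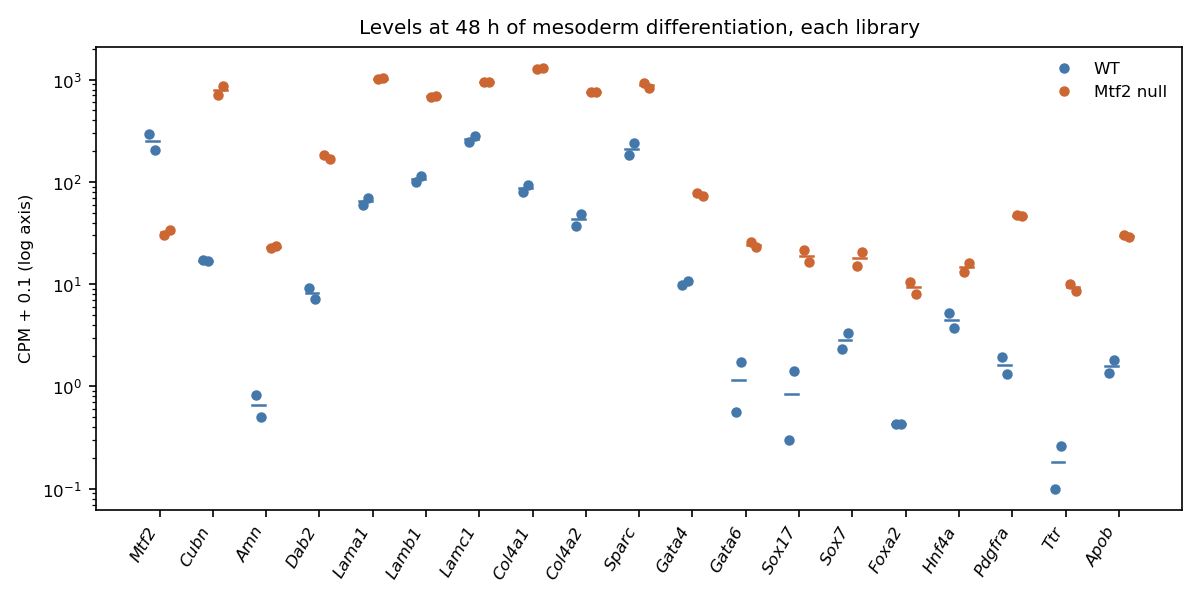
Levels of Mtf2 and of 18 genes of the extraembryonic endoderm, its basement membrane and its transcription factors at 48 h, as CPM plus 0.1 on a log axis, with a point per library and a bar at the mean of the 2 libraries of WT (blue) and Mtf2 null (orange). Mtf2 is lower in Mtf2 null cells, and the other genes are higher, with no overlap between genotypes.

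Transcription factors shared by endoderm and mesoderm rose in the same libraries. Gata6 was at 0.458 and 1.63 CPM in WT cells and at 25.5 and 23.1 CPM in Mtf2 null cells, a log2 fold change of 4.59 (SE 0.31, adjusted p = 5.6e-10). Gata4 went from 9.80 and 10.8 CPM to 77.2 and 72.3 CPM (2.86, SE 0.18, adjusted p = 3.2e-10). Both zinc-finger factors specify primitive endoderm and act again in heart mesoderm. Sox17, a factor of endoderm and hemogenic endothelium, went from 0.196 and 1.31 CPM to 21.3 and 16.6 CPM (4.72, SE 0.47, adjusted p = 2.1e-07). Every one of these Mtf2 null values exceeded both WT values. Since the WT libraries differed in these genes, the log2 fold change of Gata6 was 3.89 without WT replicate 1 and 5.70 without WT replicate 2, and that of Sox17 was 3.85 and 6.51, all called. Foxa2, a pioneer factor of endoderm, and Sox7, which parietal endoderm and early vessels express, had log2 fold changes of 4.77 and 2.72.

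Hnf4a, a nuclear receptor that drives visceral endoderm genes, changed less, from 5.10 and 3.67 CPM to 13.0 and 16.2 CPM (log2 fold change 1.73, SE 0.30, adjusted p = 0.00022). Its call was lost when any 1 of the 4 libraries was left out, although its log2 fold change stayed between 1.51 and 1.99. The definitive endoderm list, which holds Sox17 and Foxa2, had 3 genes higher and 1 lower among 9 tested of 10, with a median of 0.259. The gene lower in Mtf2 null cells was Trh, a hormone precursor, at 122 and 86.3 CPM in WT cells and 28.8 and 27.2 CPM in Mtf2 null cells (log2 fold change -1.90). Cxcr4, a chemokine receptor of definitive endoderm, was not called at 1.56 (SE 0.48, adjusted p = 0.021).

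The mesoderm label was weakly borne out by its markers in either genotype. Over the 8 lateral mesoderm markers the summed level was 23.7 to 28.5 CPM in WT cells and 163 to 172 CPM in Mtf2 null cells. Foxf1 and Kdr, both defining markers, were under 1 CPM in both genotypes, and in Mtf2 null cells Gata4, Gata6 and Pdgfra, which extraembryonic endoderm also expresses, made up most of the sum. The summed level of 6 pluripotency markers was 1500 to 1530 CPM in WT and 1160 to 1190 CPM in Mtf2 null cells, and that of 4 extraembryonic endoderm markers was 10.9 to 14.1 and 192 to 207 CPM. The sum over 4 trophoblast markers was 59.5 to 65.4 CPM in WT cells, above the lateral mesoderm sum, and 16.7 to 19.2 CPM in Mtf2 null cells. Tfap2a made up most of the WT sum, at a mean of 41.7 CPM in WT and 3.04 CPM in Mtf2 null cells. Gata3 was at 19.0 and 12.2 CPM. Cdx2 (0.237 and 0.374 CPM) and Elf5 (1.54 and 2.35 CPM) were not lower in Mtf2 null cells, and the trophoblast list had a median log2 fold change of 0.885. In these bulk libraries fewer cells of a type and less RNA per cell cannot be told apart, and the part of a changed mixture of cells was not tested.

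Hand1, a transcription factor of lateral mesoderm, was at 4.51 and 5.87 CPM in WT cells and at 9.72 and 7.69 CPM in Mtf2 null cells, above the undifferentiated level in both, and did not pass the test between genotypes (log2 fold change 0.75, SE 0.31, adjusted p = 0.085). Of the 31 members of the lateral and cardiac mesoderm list 20 were tested, of which 4 were higher and 2 lower, with a median of 0.341. Pdgfra, the receptor for platelet-derived growth factor that marks both mesoderm and primitive endoderm, was at 1.83 and 1.22 CPM in WT cells and at 46.9 and 46.5 CPM in Mtf2 null cells (4.90, SE 0.26, adjusted p = 1.1e-11). Besides Pdgfra and the GATA factors, Hopx, a homeodomain-only cofactor of the heart, was higher (2.06). Lower were Meis2, a homeobox cofactor (-1.66), and Myl4, an atrial myosin light chain (-2.32). The call of Meis2 was lost without any 1 of the 4 libraries (-1.78 to -1.55), that of Myl4 without any except WT replicate 2 (-2.50 to -2.11), and that of Hopx without WT replicate 2 or Mtf2 null replicate 1 (1.69 to 2.42). Isl1, a factor of second heart field progenitors, was at most at 1.47 CPM in these libraries (-1.60, SE 0.65, adjusted p = 0.071).

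The PDGF list held 1 higher and 1 lower gene among 6 tested, with a median of 0.386. Pdgfrb, the other receptor of the family, was lower. It was at 2.42 and 1.96 CPM in WT cells and at 0.454 and 0 CPM in Mtf2 null cells, a log2 fold change of -3.30 (SE 0.59, adjusted p = 0.00027). Without WT replicate 1 or Mtf2 null replicate 2 it was not called, at -3.13 and -2.25, and without Mtf2 null replicate 1 the remaining Mtf2 null library held 0 counts and the fitted value was -7.69.

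Endothelial and blood genes gave 4 higher and 0 lower among 12 tested of 19, with a median of 0.918. Runx1, the master factor of hemogenic endothelium, went from 0.784 and 1.06 CPM to 13.7 and 10.7 CPM (log2 fold change 3.73, SE 0.27, adjusted p = 2.2e-09). Tek, an angiopoietin receptor, rose from 8.24 and 8.64 to 24.7 and 20.8 CPM (1.43). Cdh5, the cadherin of endothelial junctions, had 0 counts in both WT libraries and 41 in the Mtf2 null libraries, at least 15.9-fold higher when 3 counts over the group are taken as the floor. Its call was lost without WT replicate 1. Tal1, a master factor of blood, was under 1 CPM in each of the 4 libraries, and Sox7, the fourth gene called here, is shared with parietal endoderm. These 4 genes already had higher means in Mtf2 null cells before differentiation, when 3 of the 12 genes tested were called higher. Means in Mtf2 null and WT cells were then 9.07 and 1.80 CPM for Runx1 and 14.5 and 2.26 CPM for Tek. They were 2.84 and 0.466 CPM for Cdh5 and 14.85 and 4.37 CPM for Sox7. The change in effect since then was called for 0 of the 12 genes tested.

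Primitive streak genes did not differ by the call rule. T (brachyury), at 55.6 and 59.8 CPM in WT and 40.0 and 37.6 CPM in Mtf2 null cells at 24 h, was at or under 0.0793 CPM in each of the 4 libraries at 48 h. Eomes was at 9.02 and 10.6 CPM in WT and 11.4 and 11.4 CPM in Mtf2 null cells (log2 fold change 0.22, SE 0.21, adjusted p = 0.49). None of 8 primitive streak genes tested of 15 and none of 8 paraxial mesoderm genes tested of 10 were called, by this edgeR test.

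Epithelial genes formed a second group. Of 9 epithelial members of the adhesion list, all of them tested, 7 were higher and 0 lower, with a median log2 fold change of 1.29, whereas of 9 tested among 10 mesenchymal members 0 were higher and 1, Zeb1, was lower, with a median of -0.13. Krt8, a simple epithelial keratin, was at 27.5 and 50.8 CPM in WT and 173 and 152 CPM in Mtf2 null cells (2.06, SE 0.22, adjusted p = 5.5e-07), and its partner Krt18 had 2.01 (1.54 without WT replicate 1 and 2.68 without WT replicate 2). Epcam, an epithelial adhesion molecule, was at 104 and 90.6 CPM in WT and 224 and 211 CPM in Mtf2 null cells (1.16, SE 0.11, adjusted p = 8.1e-08). No library of 1 genotype reached the range of the other for these genes. The tight junction genes Cldn6 and Cldn7 had log2 fold changes of 1.37 and 1.34, Esrp1, an epithelial splicing factor, had 1.29 and Grhl2, an epithelial transcription factor, had 1.04. Zeb1, a repressor of epithelial genes, was at 7.78 and 8.40 CPM in WT and 3.45 and 3.80 CPM in Mtf2 null cells (-1.15). Cdh1, which encodes E-cadherin, did not pass the test, with 0.02 (SE 0.13, adjusted p = 0.94). Leaving out 1 library ended the calls of Cldn7 (WT replicate 1 or Mtf2 null replicate 1, range 1.01 to 1.75), Grhl2 (WT replicate 2 or Mtf2 null replicate 1, range 0.857 to 1.26) and Zeb1 (Mtf2 null replicate 1, range -1.22 to -1.08).

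BMP4 was supplied in the medium, and its pathway showed no uniform shift. Of 18 genes tested among 22 members, 3 were higher and 1 lower, with a median of 0.0838. Among ligands, Bmp6 went from 1.57 and 1.88 CPM to 15.8 and 15.9 CPM (log2 fold change 3.20, SE 0.25, adjusted p = 4.5e-09) and Bmp2 from 0.196 and 0.0815 CPM to 2.64 and 2.14 CPM (3.95, SE 0.61, adjusted p = 5.6e-05). The antagonist Nog had 2.64 (SE 0.53, adjusted p = 0.00078). Among targets Msx2, a homeobox gene induced by BMP, was the gene called, at 28.9 and 33.3 CPM in WT and 13.5 and 10.5 CPM in Mtf2 null cells (-1.38, SE 0.20, adjusted p = 2.9e-05). Msx1, another target on the list, was also lower, at a mean of 3.44 CPM in WT and 1.17 CPM in Mtf2 null cells, but was not called. The median over the 6 targets tested was -0.384. Id1 and Id3, the classical immediate targets, had -0.38 (adjusted p = 0.055) and 0.08 (adjusted p = 0.73). The call of Bmp2 was lost without either WT library (4.70 and 3.53), that of Msx2 without Mtf2 null replicate 2 (-1.21), and that of Nog without WT replicate 1 (2.01) or either Mtf2 null library (2.69 and 2.59).

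Nodal and TGF-beta genes gave 4 higher and 1 lower among 20 tested of 23, with a median of 0.245. Tgfbr2, the type II receptor, went from 2.61 and 3.26 CPM to 13.0 and 9.75 CPM (1.95), and Tgfbr3, or betaglycan, a co-receptor, had 1.88. The activin antagonist Fst had 1.28, and the activin subunit Inhbb had -1.34. Fst lost its call without any 1 library except Mtf2 null replicate 1 (0.941 to 1.55) and Inhbb without any except WT replicate 1 (-1.76 to -0.809). Nodal itself was at 34.8 and 28.8 CPM in WT and 43.8 and 45.3 CPM in Mtf2 null cells, a log2 fold change of 0.48 (SE 0.13, adjusted p = 0.0083) that missed the limit. Its feedback inhibitor Lefty1, at 54.1 to 72.6 CPM at 24 h, was at or under 0.159 CPM in each library at 48 h.

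Wnt genes were called in both directions. Of 31 genes tested among 40 members, 4 were higher and 3 lower, with a median of 0.154. The ligands Wnt7b, Wnt11 and Wnt4 had log2 fold changes of 2.39, 2.40 and 1.87, and the inhibitor Dkk1 had 3 counts in the WT libraries and 49 in the Mtf2 null libraries, a ratio of 19.1 with an interval of 6.15 to 95.6. Lower were Axin2, a direct target of the pathway, at 17.9 and 17.0 CPM in WT and 7.36 and 6.66 CPM in Mtf2 null cells (-1.32, SE 0.14, adjusted p = 3.2e-07), the receptor Fzd3 (-1.41) and the inhibitor Sfrp4 (-2.12). Wnt4 lost its call without any 1 of the 4 libraries (1.79 to 1.94) and Wnt11 without any except WT replicate 2 (1.61 to 3.90).

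Of the remaining pathways, FGF had 3 higher and 0 lower among 17 tested of 19, with a median of 0.945. Etv4, a transcription factor induced by FGF, was at 15.3 and 30.8 CPM in WT and 79.6 and 74.3 CPM in Mtf2 null cells (1.75, SE 0.19, adjusted p = 7e-07), and the receptors Fgfr2 and Fgfr3 had 2.11 and 1.82. In the Hedgehog pathway 2 genes were higher and 2 lower among 9 tested of 10, with a median of -0.418. Ihh, the ligand that visceral endoderm secretes, went from 0.261 and 0.245 CPM to 7.36 and 9.83 CPM (5.03, SE 0.47, adjusted p = 9.6e-08), and Gli1, a target of the pathway, from 12.9 and 10.7 CPM to 42.5 and 39.0 CPM (1.78), while Gli2 had -1.36 and Hhip, a decoy receptor, had -3.03. Stra6, the receptor for retinol-binding protein, was the gene called among 10 retinoic acid genes tested of 13 (3.49), where the median was 1.37. Fgfr3 lost its call without any library except WT replicate 2 (1.46 to 2.26), Stra6 without any except Mtf2 null replicate 2 (3.28 to 3.67), and Hhip without WT replicate 2 or Mtf2 null replicate 1 (-4.04 to -2.49). The Notch pathway had 0 calls by edgeR among 10 genes tested of 12, with a median of 0.0278.

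**Figure D3:**
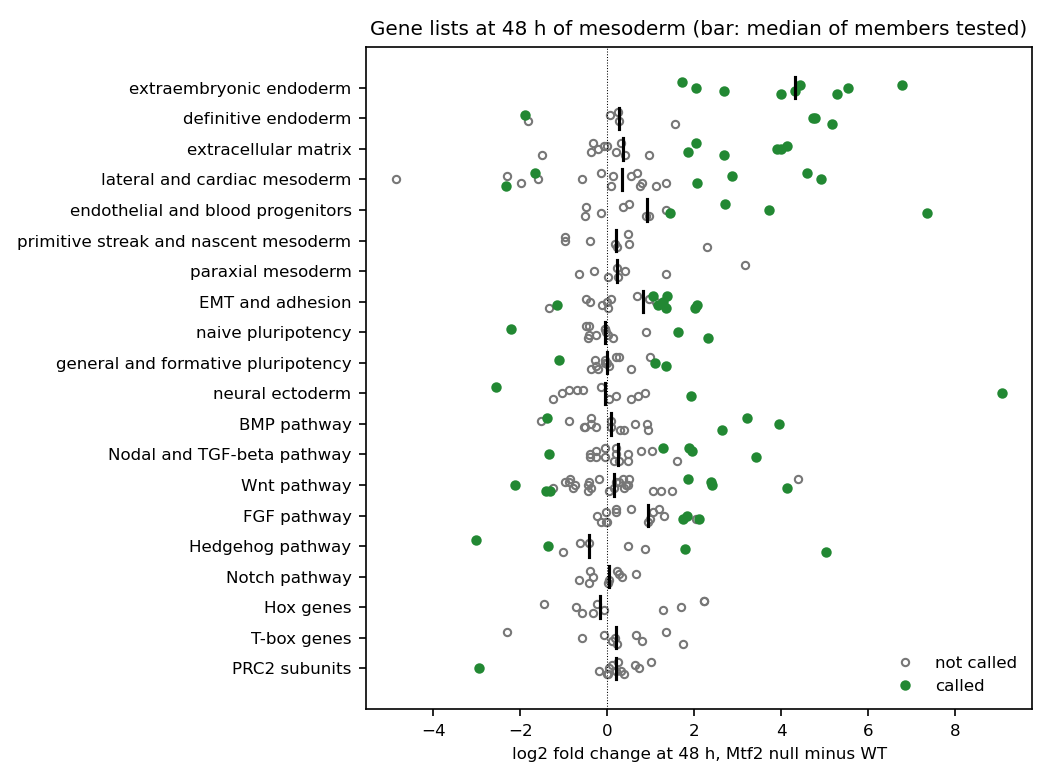
Each point is a gene of the list named on the y axis, at its log2 fold change at 48 h, Mtf2 null minus WT, on the x axis, filled where called, with a bar at the median of the members tested. The extraembryonic endoderm list has its median at 4.33 and no open point, while the medians of the other lists drawn lie between -0.418 (Hedgehog) and 0.945 (FGF).

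Pluripotency genes were still expressed at 48 h in both genotypes, and the sum over 6 markers was below its level before differentiation. The sum over the 6 markers was 2130 to 2590 CPM in WT and 2640 to 2800 CPM in Mtf2 null cells undifferentiated, against the 48 h sums of 1500 to 1530 and 1160 to 1190 CPM. In WT cells 3 of the 14 naive genes were called lower over that time and 0 higher, by this edgeR test. The 15 general and formative genes showed no such fall in WT cells, with 1 called higher, 1 lower and a median of 0.0645. The same changes were not tested in Mtf2 null cells. Pou5f1, which encodes OCT4, was at 557 and 635 CPM in WT and 530 and 504 CPM in Mtf2 null cells, and Nanog at 246 and 189 and at 179 and 185 CPM, neither past the test (log2 fold changes of -0.20 and -0.26). Of 14 naive pluripotency genes tested 2 were higher and 1 lower, with a median of -0.0622, and of 15 general and formative ones 2 were higher and 1 lower, with a median of 0.003. Zfp42, or Rex1, a marker of naive cells, was at 299 and 237 CPM in WT and 54.6 and 61.3 CPM in Mtf2 null cells, a log2 fold change of -2.21 (SE 0.15, adjusted p = 4.1e-10). Dppa3, expressed in naive and germ cells, went from 4.71 and 3.26 CPM to 17.4 and 22.8 CPM (2.32), and Nr0b1, a nuclear receptor of the naive network, from 15.4 and 14.5 CPM to 43.4 and 48.8 CPM (1.62). Naive markers thus differed in both directions, and these differences had the same direction before differentiation. Undifferentiated WT and Mtf2 null cells had means of 394 and 71.6 CPM for Zfp42 and 1.72 and 10.0 CPM for Dppa3. For Nr0b1 these were 78.6 and 245 CPM. Otx2, a factor of the formative epiblast, had -1.11 (SE 0.20, adjusted p = 0.00023), with a call that was lost without any library except WT replicate 2 (-1.36 to -0.813).

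The de novo DNA methyltransferase Dnmt3b was at 169 and 153 CPM in WT and 391 and 424 CPM in Mtf2 null cells, a log2 fold change of 1.34 (SE 0.11, adjusted p = 1.3e-08), and its cofactor Dnmt3l had 1.10, with no call without WT replicate 2 (0.909). They were the genes called among 8 DNA methylation enzymes and cofactors, whose median was 0.270. Dnmt3a did not pass the limits, with -0.38 (SE 0.10, adjusted p = 0.0083). Among germ cell genes Tex15 was higher (1.86) and Sycp3 and Dnd1 were lower (-2.50 and -1.50), out of 6 tested with a median of -1.02. The call of Sycp3 was lost without any library except WT replicate 2 (-2.80 to -2.08) and that of Dnd1 without WT replicate 1 or Mtf2 null replicate 1 (-2.01 to -1.15). Among 12 CDK inhibitors and G1 cyclins, with a median of 0.218, Ccnd2 was higher (1.19), and among 10 stress and immediate early genes, with a median of 0.397, Egr1 was higher (1.34). Ccnd2 lost its call without WT replicate 1 or Mtf2 null replicate 1 (1.01 to 1.39) and Egr1 without any library except WT replicate 2 (0.848 to 2.03). None of 10 p53 targets was called by edgeR, with a median of -0.0676.

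In the trophoblast list 2 genes were higher and 1 lower among 11 tested of 13, with a median of 0.885. Tfap2a, an AP-2 factor of trophoblast and surface ectoderm, was at 45.5 and 37.8 CPM in WT and 2.27 and 3.80 CPM in Mtf2 null cells, a log2 fold change of -3.76 (SE 0.27, adjusted p = 1.9e-09), while the keratins Krt8 and Krt18, also on this list, rose as given above. Gata3, a partner of AP-2 in trophoblast, had -0.64 (SE 0.25, adjusted p = 0.061). Before differentiation Tfap2a was at 0.493 and 0.511 CPM in WT and 0.560 and 0.311 CPM in Mtf2 null cells. The test of the change in the genotype effect since then gave -3.58 (SE 0.83, adjusted p = 0.0052) and missed the limit. In the neural list, with 2 higher and 1 lower among 14 tested of 21 and a median of -0.0484, Olig2, a factor of motor neuron and oligodendrocyte progenitors, had 1 count in the WT libraries and 599 in the Mtf2 null libraries, a ratio of 699 with an interval of 125 to 27600. Ncam1, a neural cell adhesion molecule, had -2.55, and its relative Nrcam had 1.93, with a call that was lost without any library except WT replicate 2 (1.49 to 2.47).

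Among gene families of development that PRC2 typically covers, several held no called gene. Of 39 Hox genes 10 passed the filter on low counts, of 14 T-box genes 10, of 9 Pax genes 5 and of 6 Iroquois genes 4, and none of the Hox, Cdx, T-box, Iroquois, Pax, Lhx and Nkx genes or of the sine oculis and eyes absent families tested was called, by this edgeR test. Over 34 lists with 471 genes, 352 were tested, of which 56 were higher and 20 lower, and 11 lists had no called gene. The lists were chosen with earlier results of these data known, so the shares are not read against the background of 3.76% higher and 3.06% lower genes.

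The largest decreases were mostly in pseudogenes. Of the 12 with the largest decrease 10 are annotated as pseudogenes, such as Rpl3-ps1, at 827 and 754 CPM in WT and 0.636 and 0 CPM in Mtf2 null cells. The others were Rprl3, a ribozyme, and Crocc2, with 445 counts in WT and 0 in Mtf2 null libraries (at least 127-fold lower). Of the 136 pseudogenes that were lower, 102 were under 1 CPM in both Mtf2 null libraries. Most pseudogene differences were present before differentiation. Of the 13 higher and 136 lower pseudogenes together, 131 were called in the same direction in undifferentiated cells. The authors' count estimation divides reads between near-identical copies, so single members are uncertain and the sums over a family are given too. The sum of Rpl3 and Rpl3-ps1 was 1440 and 1390 CPM in WT and 1328 and 1272 CPM in Mtf2 null cells, and that of Rpl34 and Rpl34-ps1 was 306 and 253 and 282 and 273 CPM. Eno1b, a copy of the glycolytic enzyme Eno1, was at 656 and 628 CPM in WT and 0.909 and 2.14 CPM in Mtf2 null cells, but Eno1 and Eno1b together were at 1218 and 1206 and at 1208 and 1189 CPM. Other sums did not balance. Zfp42 with its pseudogene was at 313 and 248 against 54.6 and 61.3 CPM, and the log2 ratio of the mean sums was 0.642 for the ferritin light chain Ftl1 and its copies, 0.606 for Tdg, 0.506 for Hmga1 and -0.461 for Pcna. These sums were not tested.

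Long noncoding RNAs of the imprinted cluster on chromosome 12, chosen after their values were seen, were nearly absent from Mtf2 null cells. Meg3 was at 253 and 243 CPM in WT and 0.636 and 0.872 CPM in Mtf2 null cells (log2 fold change -8.33, SE 0.32, adjusted p = 8.3e-14), and Rian and Mirg had -8.31 and -8.38. In undifferentiated cells the log2 fold change of Meg3 was -7.19, so this difference was present before differentiation. Of 9 other imprinted genes looked at, H19 and Peg3 were higher (4.61 and 2.68), as was Plagl1, with 1 count in WT and 140 in Mtf2 null libraries (ratio 163, interval 28.8 to 6500). The other 6, Igf2, Dlk1, Mest, Grb10, Zdbf2 and Cdkn1c, were not called, with log2 fold changes of -0.74 to 1.02.

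At the other end, the 12 largest increases by the naming rule included transport and brush border genes. Enpep, an aminopeptidase of absorptive epithelia, had 1 count in WT and 337 in Mtf2 null libraries (ratio 393, interval 70.1 to 15600), and Aqp8, a water channel, had 2 and 443 counts (ratio 258, interval 71.1 to 2140). S100g, an intestinal and yolk sac calcium carrier, and Ubd, a ubiquitin-like protein, had 0 counts in WT cells and were at least 72.7-fold and 64.5-fold higher. Ugt1a7c, a glucuronosyltransferase, was at least 70.4-fold higher. The noncoding transcript Gm42047 was at 3.86 and 5.79 CPM in WT and 1271 and 1273 CPM in Mtf2 null cells.

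The 48 h comparison was set against the earlier times to see what was present before differentiation. Mtf2 null and WT cells differed at 2047 genes (11.1%) undifferentiated, 1388 (7.56%) at 5 h and 1051 (5.72%) at 24 h. These were 1188 higher (6.47%) and 859 lower (4.68%) undifferentiated, 633 higher (3.45%) and 755 lower (4.11%) at 5 h, and 511 higher (2.78%) and 540 lower (2.94%) at 24 h. Of the 690 genes higher at 48 h, 400 (58%) were also called higher before differentiation, which is 33.7% of those higher there, and 4 were called lower. Of the 562 lower, 335 (59.6%) were also lower, which is 39% of those lower there, and 1 was called higher. The undifferentiated and the 48 h libraries share no sample, but they are of the same lines. The median log2 fold change of the 690 was 1.87 at 48 h, 1.68 undifferentiated, 1.32 at 5 h and 1.30 at 24 h.

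The change of the Mtf2 null effect itself was tested as an interaction. Between undifferentiated cells and 48 h it changed at 497 genes (2.71%), 193 (1.05%) toward higher and 304 (1.66%) toward lower in Mtf2 null cells, and between 24 h and 48 h at 87 genes (0.474%), 65 (0.354%) toward higher and 22 (0.12%) toward lower. The count of 497 fell to 248 without Mtf2 null replicate 1, and the count of 87 fell to 34 without WT replicate 1, to 29 without Mtf2 null replicate 1 and to 34 without Mtf2 null replicate 2.

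Some basement membrane and receptor genes were among those whose difference grew. Of the 16 extracellular matrix genes tested, the effect changed toward higher for 2 and toward lower for 1 since the undifferentiated state. Since 24 h it changed toward higher for 4 and toward lower for 0. Lama1 fell in WT cells from 204 and 167 CPM undifferentiated to 59.4 and 70.3 CPM, and in Mtf2 null cells it was at 721 and 865 CPM undifferentiated, 225 and 246 CPM at 24 h and 1019 and 1031 CPM at 48 h. Its log2 fold change grew by 1.89 (SE 0.19, adjusted p = 2.4e-06) over undifferentiated cells and by 3.07 (SE 0.19, adjusted p = 1.8e-08) over 24 h. For Pdgfra the growth was 2.31 and 2.59, and for Dab2 it was 1.22 over undifferentiated cells. Cubn dipped to 67.2 and 65.5 CPM in Mtf2 null cells at 24 h, from 176 and 206 CPM undifferentiated, before it reached 713 and 858 CPM. Its interaction over undifferentiated cells was 1.33 (SE 0.25, adjusted p = 0.001) and was not called. Against 24 h, the effect on Hnf4a grew by 3.57, on Bmp6 by 2.67, on Gata4 by 1.99, on Lamc1 by 1.75, on Col4a2 by 1.67 and on Lrp2 by 1.49. Etv4 was alike in both genotypes at 24 h, at 119 and 122 CPM in WT and 114 and 124 CPM in Mtf2 null cells, and parted by 48 h (interactions of 1.44 over undifferentiated cells and 1.77 over 24 h).

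Epithelial genes behaved in the opposite way. Grhl2 was at 8.38 and 6.99 CPM in WT cells undifferentiated, 7.14 and 6.78 CPM at 24 h and 46.9 and 35.4 CPM at 48 h, whereas Mtf2 null cells were at 66.8 and 65.9, 60.1 and 61.5, and 89.3 and 80.5 CPM. WT cells thus approached Mtf2 null cells between 24 h and 48 h, and the log2 fold change shrank by 2.07 from the undifferentiated state (SE 0.18, adjusted p = 5.3e-07) and by 2.08 from 24 h (SE 0.18, adjusted p = 1e-06). The interactions of Esrp1 were -2.25 and -2.08 and those of Cldn7 were -1.96 and -2.10. Of the 9 epithelial genes 9 were higher in Mtf2 null cells undifferentiated, 8 at 24 h and 7 at 48 h, and for 5 of the 9 the effect had shrunk from the undifferentiated state by the call rule. In WT cells alone 8 of the 9 rose between the undifferentiated state and 48 h, where 1022 genes (5.57%) were called higher and 565 (3.08%) lower.

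The Mtf2 null effect on Msx2 and Axin2 also changed between 24 h and 48 h. Msx2 was at 0.994 and 1.02 CPM in WT and 2.38 and 2.76 CPM in Mtf2 null cells at 24 h, and at 48 h the order of the genotypes was the opposite, with an interaction of -2.72 (SE 0.39, adjusted p = 0.00029). The interaction of Axin2 over 24 h was -1.07. Its means were 142.7 CPM in WT and 120.5 CPM in Mtf2 null cells at 24 h. Before differentiation Axin2 was already lower in Mtf2 null cells, at a mean of 3.95 CPM against 10.9 CPM in WT cells. Against undifferentiated cells the effect fell by 1.30 for Gli2, by 4.36 for Hhip and by 1.71 for Klf4, a naive pluripotency factor.

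**Figure D4:**
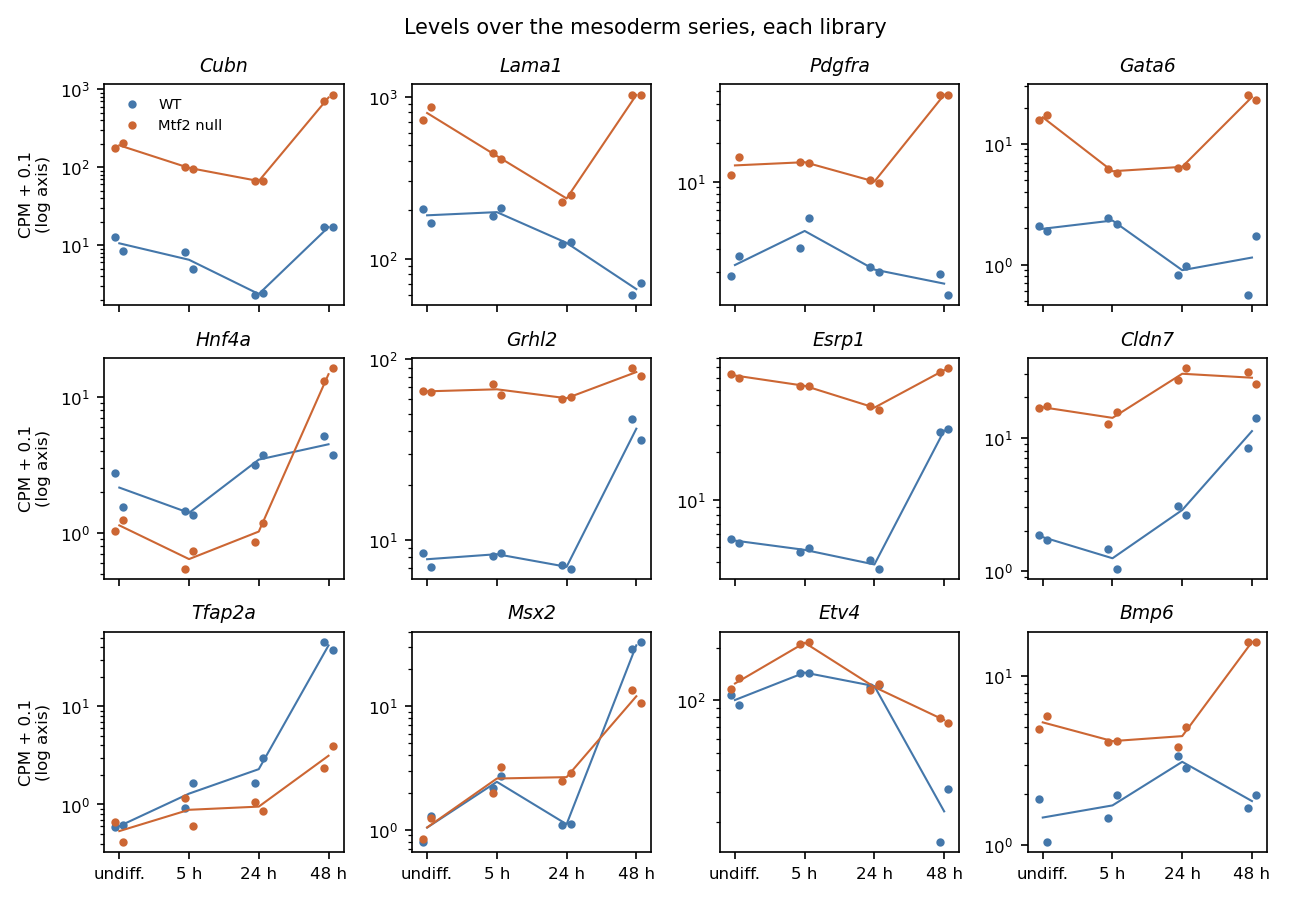
Levels of 12 genes over the mesoderm series, as CPM plus 0.1 on log axes that differ between panels, with a point per library and a line through the means for WT (blue) and Mtf2 null (orange). Cubn, Lama1 and Pdgfra part most at 48 h, Grhl2, Esrp1 and Cldn7 part most before it, and Tfap2a and Msx2 rise more in WT cells.

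Libraries labelled Jarid2 null at 48 h served as a second mutant of PRC2. Jarid2 was at 397 and 448 CPM there against 407 and 388 CPM in WT cells, so the label is not borne out by this transcript and these are called the libraries labelled Jarid2 null. The Mtf2 null libraries differed from them at 1218 genes (6.63%), 696 higher (3.79%) and 522 lower (2.84%), while the libraries labelled Jarid2 null differed from the WT libraries at 31 genes (0.169%), 26 higher (0.142%) and 5 lower (0.0272%). The comparisons share libraries, so their values stand side by side. Hprt had 1 and 3 counts in the libraries labelled Jarid2 null, 2 and 5 in WT and 634 and 662 in Mtf2 null libraries. For Meg3, an imprinted noncoding RNA, the counts were 3926 and 3673, 3875 and 2981, and 7 and 11. Genotype and line therefore cannot be told apart in this comparison either. The 9 extraembryonic endoderm genes tested were also higher in Mtf2 null than in libraries labelled Jarid2 null, with a median of 3.59. In those same libraries Cubn was at 19.1 and 21.5 CPM and Lama1 at 40.1 and 45.0 CPM, beside WT levels of 17.0 and 16.9 CPM and of 59.4 and 70.3 CPM. Fgfr2 was different, at 15.6 and 14.5 CPM there, 4.25 and 3.75 CPM in WT and 14.8 and 19.7 CPM in Mtf2 null cells.

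In the endoderm series, which shares no library with the mesoderm series, Mtf2 null and WT cells were compared at the same 48 h. There 2089 of 19601 genes (10.7%) differed, 1255 (6.4%) higher and 834 (4.25%) lower. Of the 690 genes higher in mesoderm 555 (80.4%) were also higher in endoderm, which is 44.2% of the list there, and of the 562 lower 390 (69.4%) were also lower, which is 46.8% of the list there. The same 9 extraembryonic endoderm genes were called higher, with a median of 5.41. Cubn was at 13.2 and 11.0 CPM in WT and 1272 and 1240 CPM in Mtf2 null cells, and its log2 fold change of 6.69 did not differ from that in mesoderm by the call rule (difference -1.15, SE 0.24, adjusted p = 0.0028). The difference between the series was itself tested across 48 libraries and was called at 208 of 19601 genes (1.06%), 43 (0.219%) with a higher and 165 (0.842%) with a lower log2 fold change in mesoderm.

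Of the 6 basement membrane and matrix genes raised in mesoderm, 3 were raised less than in endoderm by the call rule, Lama1 by 1.42 less (SE 0.20, adjusted p = 1e-05) and Col4a1 and its neighbour Col4a2 each by 1.61 less. The differences of Lamb1, Lamc1 and Sparc were -0.22, -0.05 and -1.07 and were not called, and none of the other 10 matrix genes tested was called. Hnf4a was raised by 3.12 less in mesoderm. The reverse held for Apob, whose log2 fold change was 2.92 larger in mesoderm (SE 0.37, adjusted p = 3.1e-06). The naive factor Klf4 and the BMP target Id3 had different levels in WT cells of the series, where CPM was scaled within each series. Id3 was at 123 and 135 CPM in WT mesoderm and 139 and 134 CPM in Mtf2 null mesoderm, and at 1.56 and 1.60 CPM in WT and 6.73 and 8.87 CPM in Mtf2 null endoderm (difference -2.21, SE 0.29, adjusted p = 4e-06). Klf4 was at 57.9 and 66.0 CPM in WT mesoderm and 8.49 and 14.0 CPM in WT endoderm, and at 42.1 and 45.7 and at 48.4 and 44.3 CPM in Mtf2 null cells (difference -2.53, SE 0.27, adjusted p = 1.2e-07). At Klf4 the Mtf2 null libraries of both series lay within a narrow range, while the WT libraries of the series lay apart. Tbx3, Tfap2c and Dppa3 gave differences of -2.44, -2.95 and -3.38 and Etv4, Dnmt3b and Bmp4 of 1.65, 1.59 and 2.25.

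**Figure D5:**
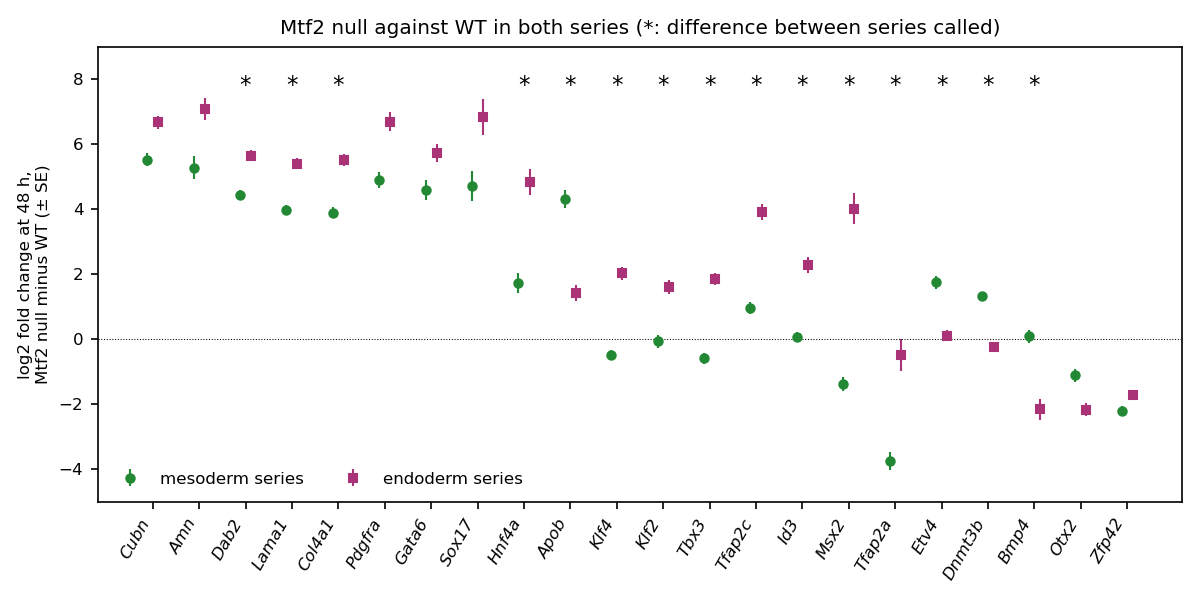
Log2 fold changes at 48 h, Mtf2 null minus WT, with SE bars, in the mesoderm (green circles) and endoderm (purple squares) series for 22 genes, with an asterisk where the difference between the series was called. Cubn, Amn, Dab2, Gata6 and Sox17 are raised in both, whereas Klf4, Klf2, Tbx3 and Id3 are raised in endoderm alone by the call rule, and Etv4 and Dnmt3b in mesoderm alone.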

How the data were processed

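Bulk RNA was depleted of ribosomal RNA and sequenced, and the authors deposited estimated counts per gene for 24 mesoderm and 24 endoderm libraries. By the study's methods the reads were aligned with Bowtie2 to build GRCm38, quantified with Salmon and tested with DESeq2. The versions of the aligner and the quantifier are not given in the sources used here. Of the mesoderm values 74.9% were whole numbers, and the estimated counts were rounded. Gene names came from an annotation of GRCm38 for 53668 of 53697 identifiers. Libraries were grouped by their labels, 2 to a group.

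From the counts, edgeR 4.0.16 (R 4.3.3) was run on the 24 mesoderm libraries with TMM scaling, a mean per genotype and time, a filter at a minimum count of 10 and a total of 15, and quasi-likelihood F tests with Benjamini-Hochberg adjustment. All 48 libraries were fitted together for the comparison of mesoderm with endoderm, over 19601 genes. Calls required both an adjusted p below 0.001 and a log2 fold change beyond 1 in size. Standard errors were derived from the fold change and the F statistic.

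Genes named were Mtf2, the 12 largest called changes per direction at 48 h and the 3 largest per direction in the other comparisons, among genes whose higher group reached 5 CPM on average and whose libraries did not overlap, members of the gene lists, and genes the study names for this protocol. Others are said to be chosen after their values were seen. The members and lists were chosen with earlier results of these data known. Fold bounds against a group at 0 take 3 counts over the group as the floor, and intervals are exact at 95% and cover counting error only.

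Alternatives were DESeq2 1.42.0, other scalings, filters, call rules and rounding, fewer libraries, and each library left out. Counts of protein-coding genes alone, fits without the libraries labelled Jarid2 null, and fits without each library of that label were added after the data were seen. The scripts were tested on simulated counts. A few genes that the rule names or the lists hold are counted but not reported by name here. The single-cell and embryoid body data of the series were not used here.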

Additional observations from a re-analysis of the deposited data

Results flagged for a closer look

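Where the Mtf2 null effect was tested between times or between series, it differed at 497 genes from undifferentiated cells to 48 h, at 87 genes from 24 h to 48 h, and at 208 genes between mesoderm and endoderm at 48 h. The genes below are among the 3 with the largest difference in each direction.

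Against undifferentiated cells, the effect on Itpr2, an intracellular calcium channel, fell by 5.36, from a log2 fold change of 4.72 to -0.64, and that on Has2, which makes hyaluronan, fell by 3.94, from 3.10 to -0.84. WT levels of Has2 rose by 4.52 over the same time. The effect on the pseudogene Gm48128 differed by -3.60. In the other direction Pou2f3, a POU factor of tuft cells, gave 5.01, from -4.09 to 0.92, and Spink1, a trypsin inhibitor of the yolk sac and gut, gave 6.57, from -0.55 to 6.02. Eno1b gave 7.97, from a fitted -16.65 that rests on levels at or near 0 in undifferentiated Mtf2 null cells, and it shares reads with Eno1.

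Against 24 h, the effect differed by -3.97 for Gm48128, by -3.29 for Nod1, an innate immune sensor (4.30 at 48 h and 7.59 at 24 h), and by -3.10 for Coch, a secreted protein of the inner ear (-1.58 and 1.51). It grew by 3.57 for Hnf4a, by 3.69 for Ankrd33b (3.02 and -0.67) and by 3.96 for Chst15, a sulfotransferase of chondroitin sulfate (4.81 and 0.86).

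Between the series, the effect in mesoderm minus that in endoderm was -5.48 for Pga5, a pepsinogen (7.68 in endoderm), -5.40 for Msx2 (-1.38 and 4.02) and -5.36 for Lrrc15 (-0.11 and 5.25). It was 4.16 for Kirrel2, a nephrin-like adhesion protein (3.77 and -0.38), and 8.61 for Gm10073 (2.68 and -5.93). The WT levels differed too. Msx2 was at 28.9 and 33.3 CPM in WT mesoderm and at 0.260 and 0.0942 CPM in WT endoderm.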

How the results depend on the processing

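The 1252 calls at 48 h (690 higher, 562 lower) became 5117 (2789 and 2328) at an adjusted p under 0.05 with no limit on the fold, 607 (310 and 297) at a log2 fold change above 2, 909 (488 and 421) by edgeR's test against a minimum log2 fold change of 1 at an adjusted p under 0.05, and 771 (448 and 323) with only the 4 libraries. Among protein-coding genes alone 353 were lower, and 314 were lower than in the libraries labelled Jarid2 null. With no filter on low counts 855 genes were lower at 48 h, the effect changed from undifferentiated cells at 1035 genes (441 and 594) and from 24 h at 444 (198 and 246), and it differed between mesoderm and endoderm at 420 (108 and 312). By DESeq2 the change from 24 h was called at 143 genes (46 toward lower).

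With 1 library left out, which leaves a lone library assumed to vary like the other groups, the calls at 48 h ranged from 877 to 1147 (465 to 656 higher, 340 to 491 lower). The change from undifferentiated cells ranged from 248 to 500 (105 to 174, 143 to 344), with 248 without Mtf2 null replicate 1. The change from 24 h ranged from 29 to 65 (21 to 51, 5 to 14), the comparison with the libraries labelled Jarid2 null from 852 to 1236 (464 to 701, 331 to 535), and that with endoderm from 141 to 180 (28 to 51, 98 to 129).

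Of 100 called genes named, 72 kept their call without each of the 4 libraries in turn, 28 lost it at least once, and 0 turned direction. DESeq2 ended 2 of these calls (Nrcam and Nog), upper quartile scaling 4, a minimum count of 30 ended 2, the test against a minimum fold 20, the fit without the libraries labelled Jarid2 null 4, RLE scaling and no filter 0, and the fit of only the 4 libraries 21. Among called genes with few counts in a genotype, the log2 fold change with 1 library left out ranged from 8.38 to 11.18 for Olig2, 7.55 to 10.35 for Enpep, 7.04 to 10.74 for Aqp8, 5.73 to 9.74 for Ttr and 3.33 to 7.58 for Dkk1. The 9 calls of the extraembryonic endoderm list became 8 without any 1 of the 4 libraries.

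The replicate numbers did not pair the libraries, with a correlation of deviations of -0.0781 between WT and Mtf2 null at 48 h and of -0.183 to 0.267 over 66 pairs of groups. With the replicate block the calls were 1210 at 48 h, 463 and 78 for the changes since undifferentiated cells and 24 h, 1186 against the libraries labelled Jarid2 null and 209 against endoderm. The block ended 2 named calls, Nog and Inhbb.

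Signs turned for values near 0 that were not called. Sox2 (0.003) gave -0.00056 by DESeq2, -0.00034 by RLE scaling, -0.065 by upper quartile scaling, -0.014 with no filter, -0.044 at a minimum count of 30, -0.030 with only the 4 libraries, -0.022 without the libraries labelled Jarid2 null, and from -0.148 to 0.17 with 1 library left out. Esrrb (0.03) gave -0.039, -0.019 and -0.0068 by upper quartile scaling, at a minimum count of 30 and with only the 4 libraries, and -0.111 and -0.00061 without WT replicate 1 or Mtf2 null replicate 1. Suz12 (0.05) gave -0.023 and -0.0017 by upper quartile scaling and at a minimum count of 30, and from -0.188 to 0.33 with 1 library left out. T (0.18) ranged from -2.13 to 2.29 with 1 library left out. The cause was not tested in any of these cases. With 2 libraries a group, genes of a few counts are limited by depth.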
